A study of Rattus norvegicus with 74 samples.

Results

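The 7 subunits of respiratory complex I that mammalian mitochondria encode themselves are Mt-nd1, Mt-nd2, Mt-nd3, Mt-nd4, Mt-nd4l, Mt-nd5 and Mt-nd6. They were found by symbol in 3 tables of counts per gene, one for each kind of sample, and all 7 were present once in every table. Their gene identifiers are ENSRNOG00000030644, ENSRNOG00000031033, ENSRNOG00000033615, ENSRNOG00000029707, ENSRNOG00000031053, ENSRNOG00000029971 and ENSRNOG00000029042, in the same order. They are 7 of 30560 genes, 7 of the 37 genes of the mitochondrial genome and 7 of its 13 mRNAs. The other 6 mRNAs encode cytochrome b of complex III (Mt-cyb), core subunits of cytochrome oxidase (Mt-co1, Mt-co2, Mt-co3) and subunits of ATP synthase (Mt-atp6, Mt-atp8).

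Complex I oxidises NADH, passes its electrons to ubiquinone and pumps protons across the inner mitochondrial membrane. Its membrane arm is built on the mitochondrially encoded subunits, and the remaining core and accessory subunits are nuclear-encoded and imported. Mt-nd2, Mt-nd4 and Mt-nd5 encode the large antiporter-like subunits of the proton pathway. Mt-nd1 encodes the subunit at the ubiquinone site, where both arms meet, and Mt-nd3, Mt-nd4l and Mt-nd6 encode small subunits between it and the pumps. The mRNAs are cut from long transcripts that cover nearly the whole genome. Mt-nd6 is the only one of the 13 mRNAs read from the light strand, and Mt-nd4l and Mt-nd4 stay together on a single mRNA. Heart and red muscle are rich in mitochondria.

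The libraries came from male Wistar Kyoto rats aged 9 weeks. Trained rats (ExT) ran on a treadmill for 4 weeks from the age of 5 weeks, on 5 days a week. Sessions grew from 20 to 60 min and the speed rose from 15 to 20 m/min. Sedentary rats (Sed) were placed on a treadmill that stood still. Rats of both arms drank water with 8% (v/v) deuterium oxide and were housed in pairs, and sampling followed the last session by 24 h. Whole red inner gastrocnemius (SM) and mitochondria that an antibody captured from the same muscle, after RNase-A and proteinase-K digestion (MT), were sequenced in 30 rats, 15 per arm. The left ventricle (LV) was sequenced in 14 of them, 7 per arm. SM and MT libraries were prepared from 50 and 10 ng of RNA with a Zymo kit, and LV libraries from 100 ng with an Illumina kit, so tissue and kit cannot be told apart in any comparison of LV with SM.

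SM libraries held 19477976 to 39401323 counts, MT libraries 530397 to 9988027 and LV libraries 54645657 to 75758777. The mitochondrial genome took 22.1% to 35.9% of the counts in SM, 12.9% to 95.4% in MT and 39.9% to 50.7% in LV, mostly as rRNA. Mitochondrial tRNAs were at 0 counts in 14 of 14 LV libraries, which allows at most 1.204e-05% (3 counts) of the mitochondrial counts, whereas they took 0.0125% to 0.0283% in SM and 0.0470% to 0.9502% in MT. This gap moves with every comparison of LV with SM, and its part in them was not tested. Summed over 6 skeletal muscle markers, libraries held 47320 to 69170 CPM (counts scaled to the library total) in SM, 96.7 to 421 in MT and 1228 to 1959 in LV, and 7 ventricle markers summed to at least 30480 CPM in every LV library. The median sums of immune and adipocyte markers were 159 and 65.9 CPM in MT_Sed, and 25.1 and 1.19 in SM_Sed. Those of endothelial, fibroblast and blood markers were lower in MT_Sed than in SM_Sed. On this scale of library totals the median log2 fold change of MT over SM in Sed was 3.43 over all genes. There edgeR called 77.1% of 22842 genes higher and 12.3% lower, so a higher marker sum in MT is not particular to these markers. Cell content was not tested. The trained rat 2 was the extreme of SM: its 13 mRNAs took 11.3% of all counts, the highest value, at the lowest total of the SM libraries. The trained rat 5 was close, at 10.8%. The lowest count of any member was 111, for Mt-nd3 in MT of the trained rat 10, a share of 0.424% of the counts on the 13 mRNAs (95% Wilson interval 0.352 to 0.510). Such intervals cover counting error only.

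2 measures are used below. The level of an mRNA is its count relative to all counts of the library, and its share is its percent of the counts on the 13 mitochondrial-genome mRNAs, which does not depend on how libraries are scaled. Shares sum to 100, so the share of a member also moves when that of another mRNA does. Gene lengths were not used here, so values are compared between libraries for each mRNA and not between mRNAs.

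The 7 members together held 31.2% ± 1.30 of the 13-mRNA counts in SM_Sed and 30.1% ± 1.52 in SM_ExT (SD, n = 15 each). In MT they held 37.2% ± 2.7 (Sed) and 36.4% ± 2.67 (ExT, n = 15 each). In LV they held 4.16% ± 0.661 (Sed) and 4.36% ± 0.882 (ExT, n = 7 each). Of all counts in a library, the members took 1.55% to 3.8% in SM, 1.42% to 6.48% in MT and 0.173% to 0.386% in LV. The range of LV therefore lay below those of both muscle preparations on either measure. These sums are a description and were not tested.

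**Figure D1:**
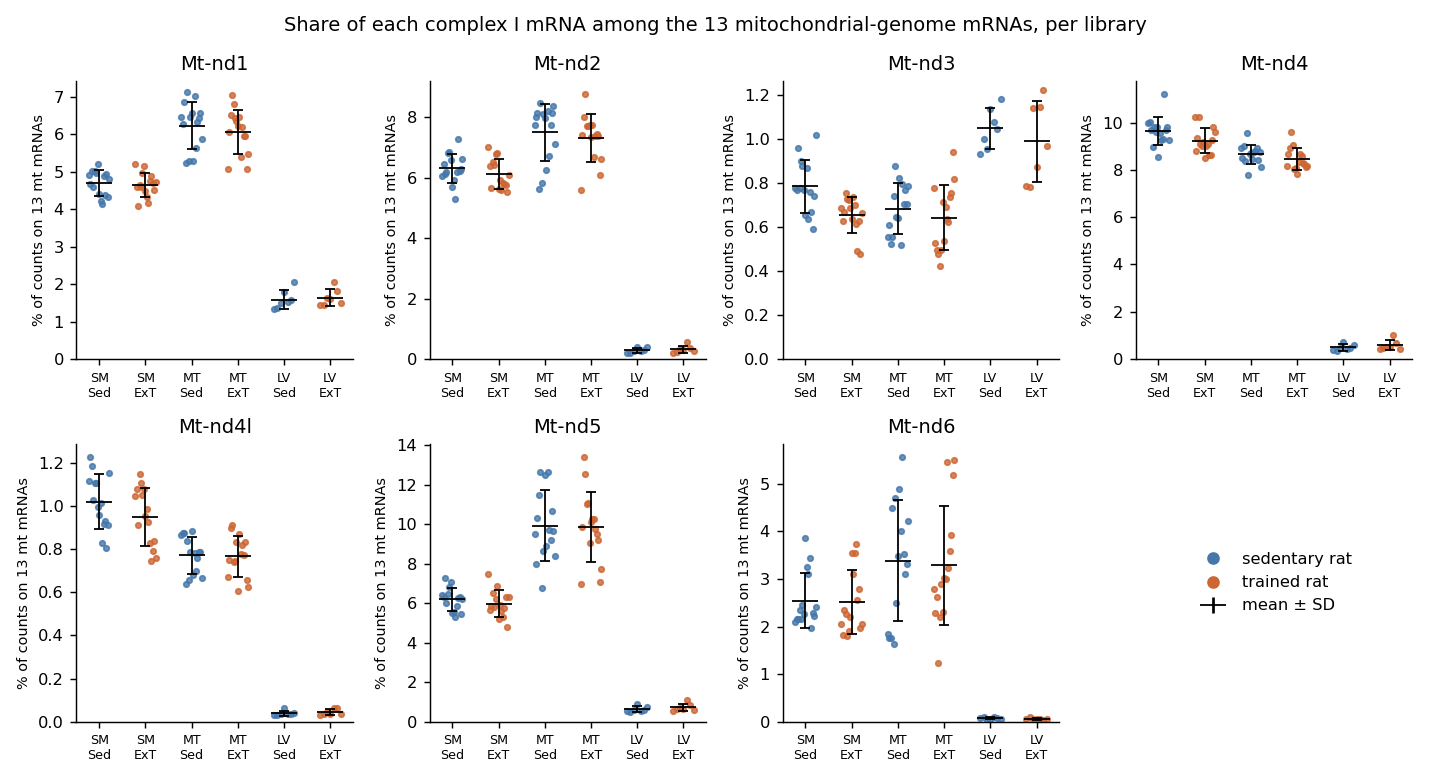
Share of each complex I mRNA in the counts on the 13 mitochondrial-genome mRNAs (percent, vertical axes from 0) in the 6 groups. Each point is a library, and bars are the mean ± SD. In LV 6 of the 7 mRNAs lie below every SM and MT library, and Mt-nd3, at 0.780% to 1.22%, does not.

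The heart libraries differed from muscle in 6 of the 7 mRNAs, and Mt-nd3 departed from the others. Levels of Mt-nd1, Mt-nd2, Mt-nd4, Mt-nd4l, Mt-nd5 and Mt-nd6 were lower in LV than in SM of the same rats in both arms, whereas the level of Mt-nd3 was called in neither arm and its mRNA took a larger share of the 13 mRNAs. In Sed rats edgeR's quasi-likelihood test with Benjamini-Hochberg adjustment called 6 of 7 members, all lower, where 78.7% of 14367 genes were called and 38.6% were called lower. In ExT rats it again called 6 of 7, all lower, where 79.3% of 14338 genes were called and 39.5% were called lower. The members' median log2 fold change was -4.91 in Sed and -4.36 in ExT, against 0.04 and 0.01 over all genes tested. With library totals alone as the scale these background medians became 0.28 and 0.21, and those of the members -4.69 and -4.16. In bulk tissue, fewer cells of a type and less RNA per cell cannot be told apart.

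Among the pump subunits, Mt-nd2 took 5.31% of the 13-mRNA counts in the lowest SM_Sed library, 6.24% in the median and 7.28% in the highest. In LV_Sed it took 0.197%, 0.281% and 0.411%. Every LV library was below every SM library. Here and below, SM_Sed values given as lowest, median and highest are over all 15 rats, and those of LV_Sed over 7. The log2 fold changes of LV over SM compare libraries of the same 7 rats in each arm. The edgeR log2 fold change of the Mt-nd2 level was -5.05 ± 0.25 (SE, adjusted p = 4.22e-12) in Sed and -4.60 ± 0.28 (adjusted p = 1.26e-10) in ExT.

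Mt-nd4, another pump subunit, went from 8.54%, 9.67% and 11.2% in SM_Sed (lowest, median, highest) to 0.356%, 0.473% and 0.720% in LV_Sed. Its level had a log2 fold change of -4.91 ± 0.22 in Sed and -4.36 ± 0.26 in ExT, again with no overlap of the shares. Mt-nd5, at the far end of the membrane arm, took 5.30%, 6.29% and 7.26% in SM_Sed and 0.482%, 0.601% and 0.880% in LV_Sed. Its log2 fold changes were -3.86 ± 0.20 and -3.42 ± 0.23, less negative than those of Mt-nd2 and Mt-nd4 in both arms.

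Mt-nd1, the subunit at the ubiquinone site, was the least reduced of the 6. It took 4.15%, 4.80% and 5.21% in SM_Sed and 1.34%, 1.51% and 2.05% in LV_Sed, and its level fell by 2.14 ± 0.15 (SE) on the log2 scale in Sed and by 1.91 ± 0.17 in ExT. Its share was 0.344 times that of SM in Sed and 0.350 times in ExT, but on the centred log2 ratio, which sets each mRNA against the geometric mean of all 13, the difference of Mt-nd1 had the opposite sign, 0.49 in Sed and 0.44 in ExT (exact permutation adjusted p = 0.00166 for both).

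The small subunits did not move together. Mt-nd4l took 0.804%, 1.02% and 1.23% in SM_Sed and 0.0291%, 0.0367% and 0.0631% in LV_Sed, with level log2 fold changes of -5.22 ± 0.21 (Sed) and -4.70 ± 0.31 (ExT). Mt-nd6 showed the lowest ratio of all 13 mRNAs in both arms: 1.98%, 2.28% and 3.87% in SM_Sed stood against 0.0399%, 0.0807% and 0.0989% in LV_Sed. Its level changed by -5.77 ± 0.21 (adjusted p = 3.93e-14) in Sed and by -5.88 ± 0.19 (adjusted p = 1.33e-15) in ExT on the log2 scale. The strand setting of the authors' counting is not given in the sources used here, so reads of Mt-nd6 cannot be told apart from reads of the opposite strand, and reads in the overlap of Mt-nd4l with Mt-nd4 are uncertain in the same way.

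Mt-nd3, which encodes a small subunit with a loop near the ubiquinone site, was the exception. In SM of the 7 Sed rats with a heart library its share averaged 0.758% ± 0.145 and in their LV 1.05% ± 0.0924 (SD), higher in 7 of 7 rats with overlapping ranges (exact permutation adjusted p = 0.00606). In the 7 ExT rats it averaged 0.617% ± 0.0973 in SM and 0.989% ± 0.183 in LV, higher in 7 of 7 rats without overlap (exact permutation adjusted p = 0.00166). Its level did not pass edgeR's test, with log2 fold changes of -0.12 ± 0.13 (adjusted p = 0.388) in Sed and 0.30 ± 0.21 (adjusted p = 0.200) in ExT. With library totals alone as the scale, the ExT value was 0.49 and passed (edgeR adjusted p = 0.0164), and in rats 17 to 32 alone it was 0.53 (edgeR adjusted p = 0.0067).

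All 7 shares differed between LV and SM in each arm, where 100% of the 13 mRNAs did: 6 members were lower (69.2% of the 13) and 1 higher (30.8%), in Sed and in ExT alike. The lowest exact permutation p that 7 against 7 libraries allow is 0.000583, which became 0.00166 after adjustment over 117 tests, and the shares of 6 members reached it in Sed and of 7 in ExT. The libraries of 6 members did not overlap in Sed and those of 7 did not in ExT, against 84.6% and 100% of the 13 mRNAs. Outside the members, Mt-co1, the catalytic subunit of cytochrome oxidase, took 75.4% ± 1.92 of the 13-mRNA counts in LV_Sed and 41.0% ± 1.25 in SM_Sed of the same rats. In Sed rats the median ratio of LV to SM shares was 0.164 for Mt-cyb, 0.233 for Mt-atp6 and 0.471 for Mt-atp8. That of Mt-nd1 was 0.353, so lower shares in LV were not limited to the members. The ratio was 1.83 for Mt-co1, 1.87 for Mt-co2 and 1.39 for Mt-co3. With the rat as a block the smallest adjusted p that the sign-flip test gave was 0.0389, and all 7 members stayed past the threshold in both arms.

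Among the LV libraries the same rats were highest for several members. In each arm the rat highest for Mt-nd4l was lowest for Mt-nd6, but a relation of Mt-nd6 to the other members was not tested. The trained rat 26 had the highest LV share of Mt-nd1 (2.07%), Mt-nd2 (0.552%), Mt-nd4 (1.01%) and Mt-nd5 (1.11%). Among sedentary rats, rat 29 was highest for Mt-nd2 (0.411%), Mt-nd4 (0.720%), Mt-nd4l (0.0631%) and Mt-nd5 (0.880%). The same rat 29 was lowest in LV_Sed for Mt-nd6 (0.0399%), and the trained rat 27 was highest in LV_ExT for Mt-nd4l (0.0643%) and lowest for Mt-nd6 (0.0381%).

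**Figure D2:**
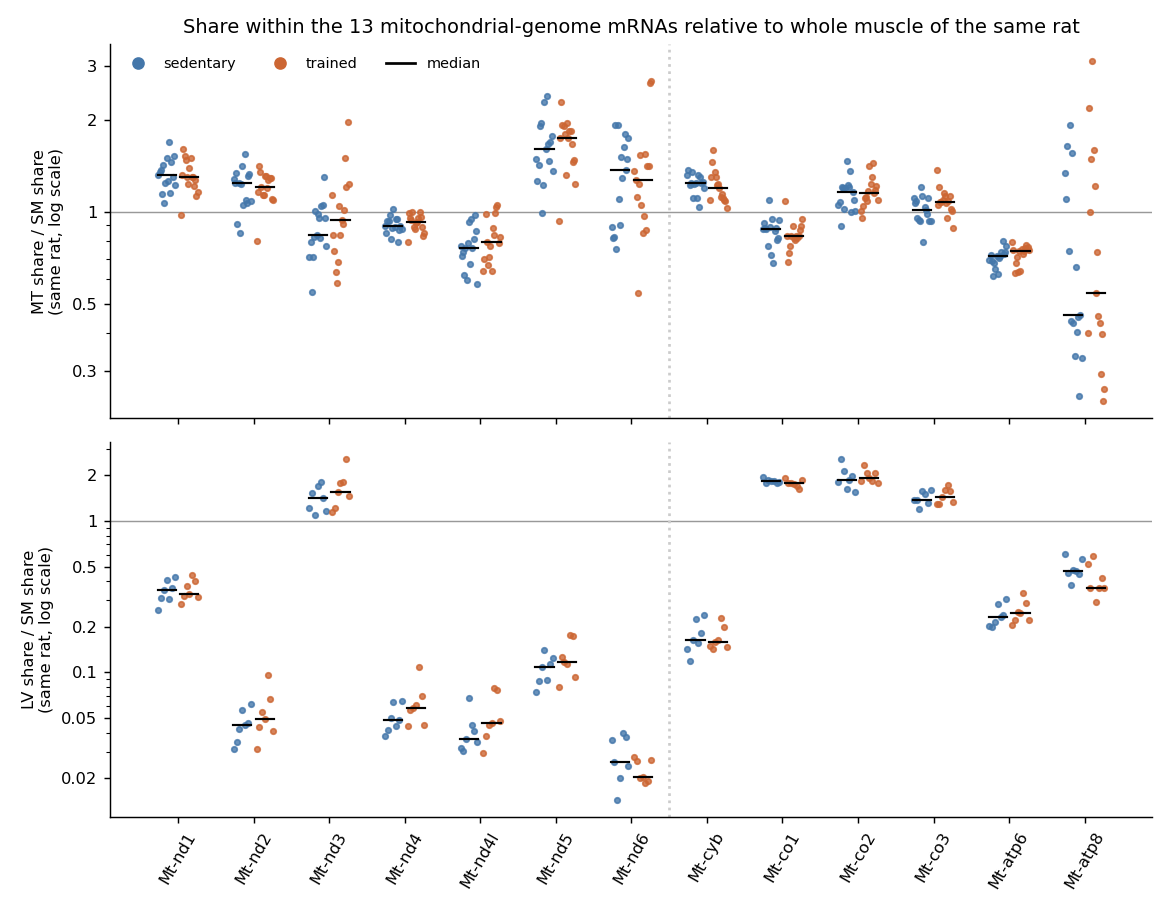
Share of each of the 13 mRNAs in MT (top) and LV (bottom) divided by its share in SM of the same rat, on log axes. Points are rats, bars are medians, and complex I mRNAs stand left of the dotted line. Among the complex I mRNAs the median LV ratio of Sed rats ran from 0.0256 for Mt-nd6 to 1.41 for Mt-nd3. In MT it ran from 0.760 for Mt-nd4l to 1.60 for Mt-nd5. Other mRNAs lay outside these ranges, such as Mt-co2 at 1.87 in LV and Mt-atp8 at 0.458 in MT.

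In MT the shares of Mt-nd1, Mt-nd2 and Mt-nd5 were higher than in SM, and those of Mt-nd4 and Mt-nd4l were lower, in both arms. In each arm 5 of 7 members passed the permutation test, where 69.2% of the 13 mRNAs passed in Sed and 76.9% in ExT, so the count of members was near that over all 13. The 3 higher members compare with 38.5% of the 13 in Sed and 46.2% in ExT, and the 2 lower members with 30.8% in either arm.

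Mt-nd5 showed the largest ratio. In Sed rats its share was 9.93% ± 1.78 (SD) in MT and 6.19% ± 0.597 in SM of the same 15 rats, 1.60 times as high and higher in 14 of 15 rats (permutation adjusted p = 9.75e-05, from the smallest p of 1e-05 that 100000 resamples can give). In ExT rats it was 9.86% ± 1.79 in MT and 5.97% ± 0.679 in SM, 1.65 times as high and higher in 14 of 15 rats. The groups overlapped in both arms.

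Mt-nd1 took 5.24%, 6.44% and 7.13% in MT_Sed (lowest, median, highest) against 4.15%, 4.80% and 5.21% in SM_Sed. These groups did not overlap, as was the case for 15.4% of the 13 mRNAs, and MT was higher in 15 of 15 rats (permutation adjusted p = 9.75e-05). In ExT rats the share of Mt-nd1 was 1.30 times as high in MT and higher in 14 of 15 rats. Mt-nd2 was 1.19 times as high in Sed (13 of 15 rats, permutation adjusted p = 0.00166) and 1.2 times in ExT (14 of 15 rats, permutation adjusted p = 0.000752). Within rats 2 to 16 the differences of Mt-nd2 were 0.978 points in Sed and 1.05 in ExT, and neither passed (exact permutation adjusted p = 0.139 and 0.0682).

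Mt-nd4l and Mt-nd4, which share an mRNA, both took smaller shares in MT. Mt-nd4l averaged 0.772% ± 0.0856 (SD) in MT of the 15 Sed rats and 1.02% ± 0.128 in their SM, with MT lower in 15 of 15 rats. In ExT rats it was 0.768% ± 0.0959 and 0.951% ± 0.134, with MT higher in 2 of 15 rats. Mt-nd4 averaged 8.66% ± 0.409 in MT_Sed and 9.63% ± 0.592 in SM_Sed, and 8.44% ± 0.466 and 9.23% ± 0.541 in ExT, where MT was higher in 0 of 15 rats. In ExT rats 2 to 16 Mt-nd4 did not pass (exact permutation adjusted p = 0.0818), and in ExT rats 17 to 32 Mt-nd4l did not (exact permutation adjusted p = 0.0988).

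Mt-nd6 and Mt-nd3 did not pass between MT and SM without the pairing by rat. The share of Mt-nd6 was 3.39% ± 1.27 in MT_Sed and 2.55% ± 0.576 in SM_Sed (permutation adjusted p = 0.0665), and 3.29% ± 1.25 and 2.51% ± 0.673 in ExT (permutation adjusted p = 0.0992). Mt-nd3 was at 0.683% ± 0.116 in MT_Sed and 0.784% ± 0.121 in SM_Sed (permutation adjusted p = 0.0665), and at 0.642% ± 0.149 and 0.655% ± 0.0809 in ExT (permutation adjusted p = 0.914). With the rat as a block both passed in Sed rats, Mt-nd6 at a permutation adjusted p of 0.0389 and Mt-nd3 at 0.0427, and neither passed in ExT. Within rats 2 to 16 Mt-nd3 was lower in MT_Sed by 0.189 points (exact permutation adjusted p = 0.0205), and within rats 17 to 32 Mt-nd6 was higher by 1.196 (0.0174).

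Levels in MT relative to SM could not be given a direction. With the main scaling, edgeR called 0 of 7 members in each arm, where 94.8% of 22842 genes were called in Sed and 94.3% of 21312 in ExT. No member reached an unadjusted p under 0.05 in either arm by edgeR, and DESeq2 called 1 member in Sed and 3 in ExT, all higher, where it called 66% and 63.9% of all genes higher. The members' log2 fold changes ran from -0.63 (Mt-nd4l) to 0.54 (Mt-nd6) in Sed and from -0.08 (Mt-nd4l) to 1.02 (Mt-nd6) in ExT, all below the medians over all genes of 1.81 and 1.31. Scaling to library totals alone moved the medians over all genes to 3.43 and 2.92 and called 6 members higher in Sed and 4 in ExT, where 77.1% and 73.8% of all genes were called higher and 12.3% and 11.5% lower. The fit with the rat as a block called 3 members lower in Sed (Mt-nd3, Mt-nd4, Mt-nd4l) and 2 in ExT (Mt-nd4, Mt-nd4l), where 33% and 35% of all genes were called lower.

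The make-up of the MT libraries moved with how much of the library came from the mitochondrial genome. Over the 30 MT libraries the shares of all 7 members were correlated with the mitochondrial-genome percent of the counts, where 92.3% of the 13 mRNAs were. Mt-nd5 had a Pearson r of -0.90 and a Spearman rho of -0.91 (permutation adjusted p = 7.8e-05 for both, over 39 tests). Without the 2 libraries farthest from the median percent r was -0.87, and it was -0.92 within Sed, -0.90 within ExT, -0.93 within rats 2 to 16 and -0.88 within rats 17 to 32. The MT library with the highest percent, the trained rat 2 at 95.4%, had a Mt-nd5 share of 6.97%. The library with the lowest, the sedentary rat 23 at 12.9%, had 12.7%, whereas SM_Sed libraries spanned 5.30% to 7.26%.

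Mt-nd1 and Mt-nd2 fell with the percent as well, at r = -0.81 and -0.70 (rho = -0.79 and -0.64, permutation adjusted p = 7.8e-05 and 0.00013 for r). Mt-nd3 went the other way, with r = 0.77 and rho = 0.79 (permutation adjusted p = 7.8e-05), and r was 0.72 in rats 2 to 16 and 0.86 in rats 17 to 32. Mt-nd6 rose too (r = 0.53, rho = 0.49, permutation adjusted p = 0.011), with r = 0.44 (permutation adjusted p = 0.214) in the earlier rats and 0.65 (0.0308) in the later, and 0.38 (0.243) within Sed and 0.66 (0.0342) within ExT. Mt-nd4 (r = -0.55, rho = -0.50) and Mt-nd4l (r = -0.51, rho = -0.44) fell more weakly, at permutation adjusted p of 0.00663 and 0.0128. Mt-nd4 passed in rats 2 to 16 and within Sed, but not in rats 17 to 32 (r = -0.36, permutation adjusted p = 0.279) or within ExT (r = -0.48, 0.184). Mt-nd4l passed in neither rat range (permutation adjusted p = 0.167 and 0.166) and in neither arm (0.0903 and 0.173), nor without the 2 farthest libraries (r = -0.43, 0.0609).

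Depth differed along with the percent in MT: rat 2 also had the highest total, 9988027 counts, and the part of depth in these relations was not tested. Counts outside the mitochondrial genome spanned only 430162 to 1055433 in MT, where totals spanned 530397 to 9988027. Total depth and the percent therefore cannot be told apart well in these libraries. In SM, where the percent spanned 22.1% to 35.9%, 2 of 7 members passed and 23.1% of the 13 mRNAs did. These were Mt-nd1 (r = -0.58, rho = -0.67, permutation adjusted p = 0.00457, n = 30) and Mt-nd5 (r = -0.44, rho = -0.48, permutation adjusted p = 0.0359). In rats 2 to 16 alone Mt-nd3 passed in SM, with r = -0.75 (permutation adjusted p = 0.0171), where r over all SM libraries was -0.28. Mt-nd5 lost its call without the 2 farthest libraries (r = -0.40, permutation adjusted p = 0.0904), and Mt-nd1 had r = -0.43 (permutation adjusted p = 0.241) in the earlier rats and -0.77 (0.00279) in the later. In LV 1 of 7 passed, where 7.69% of the 13 mRNAs did: Mt-nd3, with r = 0.77 and rho = 0.68 over 14 libraries (permutation adjusted p = 0.00502), and r = 0.68 over 12 (permutation adjusted p = 0.048).

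**Figure D3:**
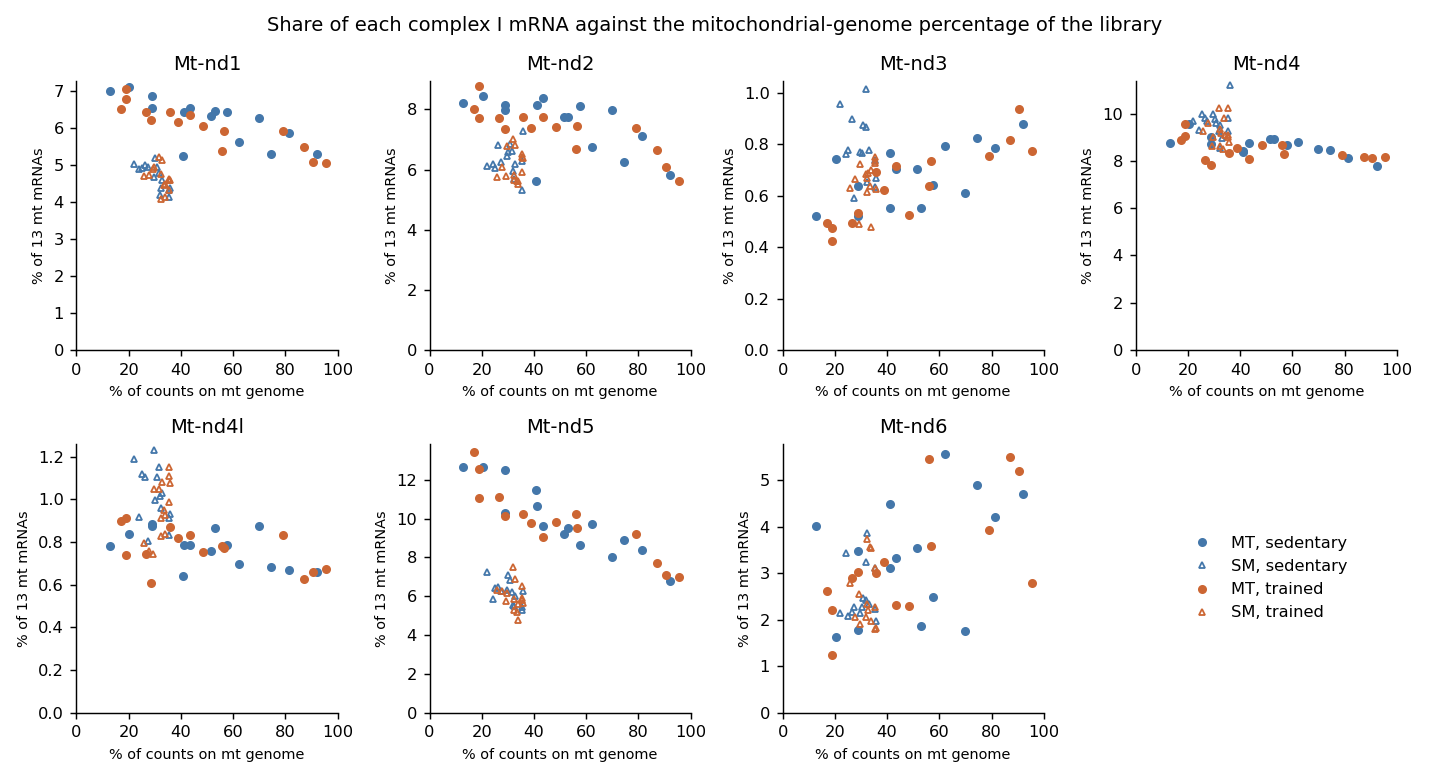
Share of each complex I mRNA (percent of the 13 mRNAs) against the percent of all counts on the 37 mitochondrial-genome genes, for MT libraries (filled circles) and SM libraries (open triangles). Mt-nd5 in MT goes from 12.7% in the library at 12.9% to 6.97% in that at 95.4%, and Mt-nd3 goes the other way.

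Training left the levels of the 7 mRNAs without a called change in muscle, mitochondria or heart. In SM edgeR called 0 of 7 members, where 0.206% of 13570 genes were called and 1860 had an unadjusted p under 0.05, and DESeq2 called 131 genes and no member. edgeR also called 0 of 7 with library totals alone (0.243% of genes called) and with 3 rat-number ranges as a covariate (0.45%). The log2 fold changes of ExT over Sed in SM ran from -0.05 ± 0.14 (SE) for Mt-nd3 to 0.18 ± 0.13 for Mt-nd1, above 0 for 6 of 7 members, with a median of 0.13 against -0.01 over all genes. No member had an unadjusted p under 0.05. In MT edgeR and DESeq2 called 0 genes of 19281 (0% in all, 912 with an unadjusted edgeR p under 0.05), and the members' log2 fold changes were 0.59 to 0.73 with SE of 0.60 to 0.77. With library totals alone all 7 were below 0 in MT, and with DESeq2 3 of 7 were. In LV edgeR called 0 of 14488 genes (0% in all, 855 with an unadjusted p under 0.05) and DESeq2 called 1, no member. The values there were -0.17 ± 0.21 for Mt-nd6 and 0.06 to 0.38 for the other 6.

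In CPM of all counts, Mt-nd1 stood at 2378, 3252 and 4313 in SM_Sed (lowest, median, highest) and at 2626, 3307 and 5876 in SM_ExT. Mt-nd5 stood at 2922, 4141 and 5874 in SM_Sed and at 3076, 4099 and 8436 in SM_ExT. The arms overlapped, with 5 of 15 ExT libraries above the highest Sed library for Mt-nd1 and 4 of 15 for Mt-nd5. The highest ExT value was that of rat 2 for both mRNAs. Without that library the log2 fold changes of all 7 members in SM lay between -0.11 and 0.11.

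The training difference in SM was also taken within the earlier and the later rats, and the difference between these ranges did not pass its test. In rats 2 to 16 the log2 fold changes of all 7 members were above 0 (0.18 to 0.44, median 0.37), 5 of 7 had an unadjusted edgeR p under 0.05 and 0 passed after adjustment, where 2.95% of 13423 genes passed. In rats 17 to 32 all 7 were below 0 (-0.34 to -0.0036, median -0.18), 1 of 7 had an unadjusted p under 0.05 and 0 passed, where 0.00732% of 13662 genes passed. The difference between the ranges ran from -0.65 ± 0.22 (SE) for Mt-nd2 to -0.30 ± 0.21 for Mt-nd6. Of the members, 6 of 7 had an unadjusted p under 0.05 for it and 0 passed (edgeR adjusted p from 0.235 to 0.564), and edgeR called 0 of 14033 genes, 1803 of which had an unadjusted p under 0.05. This split by rat number was known from earlier results of these data.

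**Figure D4:**
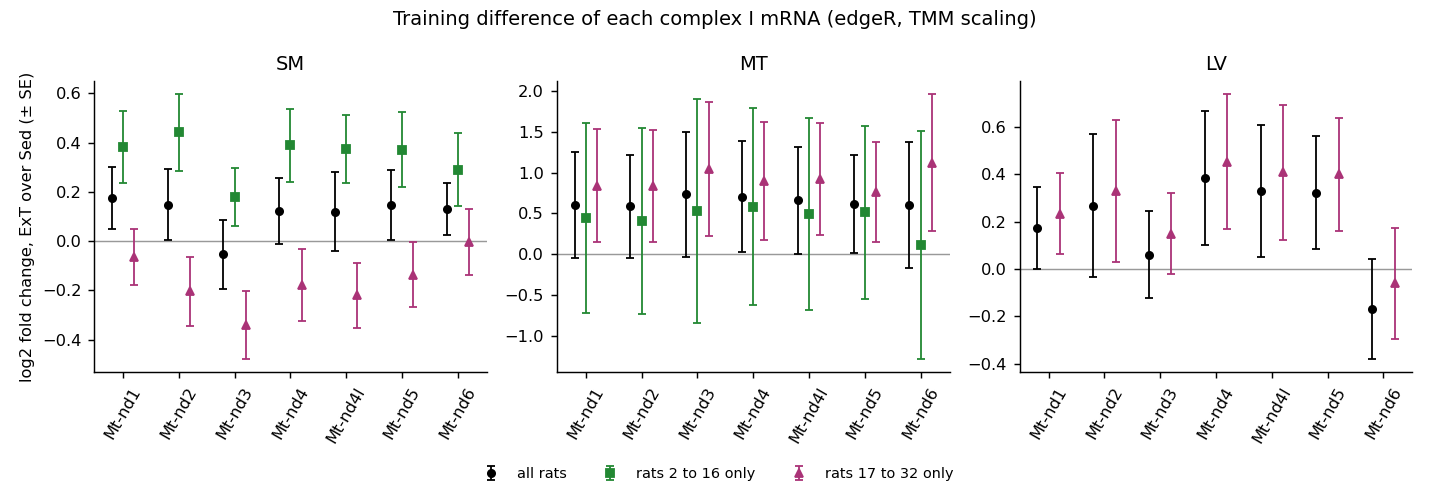
Log2 fold change of ExT over Sed for each complex I mRNA (edgeR, TMM scaling), with bars of ± 1 SE, in all rats and within rats 2 to 16 or 17 to 32. LV held too few rats of the earlier range for that value. In SM the earlier rats lie above 0 (0.18 to 0.44) and the later rats below it (-0.34 to -0.0036).

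Within the 13 mRNAs, Mt-nd3 was the only member whose share passed the test for training over all rats, and it did so in SM. In each sample type a permutation test compared the shares of the arms, and in SM 1 of 7 members and 15.4% of the 13 mRNAs passed (7.69% lower). The share of Mt-nd3 was 0.591%, 0.768% and 1.02% in SM_Sed (lowest, median, highest) and 0.478%, 0.669% and 0.752% in SM_ExT. The arms overlapped, with 10 of 15 Sed libraries above the highest ExT library and 2 of 15 ExT libraries below the lowest Sed library. The means were 0.784% ± 0.121 and 0.655% ± 0.0809 (SD, n = 15 each), a difference of -0.129 points (permutation adjusted p = 0.00417). The difference was -0.136 (exact permutation adjusted p = 0.0022) in rats 2 to 16 and -0.123 (0.121) in rats 17 to 32, and -0.131 (permutation adjusted p = 0.00452) without the trained rat 2. This concerns the share only. The level of Mt-nd3 in SM had a log2 fold change of -0.05 over all rats (edgeR adjusted p = 0.902). In rats 2 to 16 it was 0.18 (edgeR adjusted p = 0.377), above 0.

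The other 6 members had lower mean shares in SM_ExT than in SM_Sed, by 0.0330 points for Mt-nd6 to 0.397 for Mt-nd4, and none passed (permutation adjusted p of 0.140 to 0.934). In MT the differences between the arms ran from -0.213 points for Mt-nd4 to -0.0042 for Mt-nd4l, and 0 of 7 members passed, as did 0% of the 13 mRNAs. In LV 0 of 7 passed in the exact test, again with 0% of the 13, and the smallest exact permutation adjusted p was 0.442, for Mt-nd6. For Mt-nd3 the difference was -0.0405 points in MT (permutation adjusted p = 0.618) and -0.0589 in LV (exact permutation adjusted p = 0.652). In MT of rats 17 to 32 alone the share of Mt-nd4 fell by 0.353 points with training (exact permutation adjusted p = 0.0445).

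Whether training acted differently on the members in MT or LV than in SM was tested through the difference of the differences. These comparisons share the SM libraries with those above. The log2 fold change of this term was 0.38 to 0.74 for MT against SM, with SE of 0.62 to 0.78, and edgeR called 0 of 7 members and 0.0181% of 27684 genes. For LV against SM it was -0.09 to 0.57, and edgeR called 0 of 7 members and 0% of 15049 genes, of which 687 had an unadjusted p under 0.05. DESeq2 called 32 and 1 genes in these tests and no member. For the shares 0 of 7 members and 0% of the 13 mRNAs passed in either test. The lower share of Mt-nd3 in SM_ExT was therefore not shown to differ from the difference of its share in MT or LV. This term was 0.0887 points for MT (permutation adjusted p = 0.345) and 0.0817 for LV (exact permutation adjusted p = 0.651).

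The share of Mt-nd6 in SM was high in a run of 8 rat numbers. In SM all 8 libraries of rats 17 to 24, 4 Sed and 4 ExT, lay between 3.11% and 3.87% (mean 3.45% ± 0.279 SD). The 14 libraries of rats 2 to 16 lay between 1.79% and 2.46%, and the 8 of rats 25 to 32 between 1.98% and 2.79%. No library of rats 17 to 24 overlapped with either. In MT the shares were 1.23% to 4.71% in rats 2 to 16, 3.01% to 5.57% in rats 17 to 24 and 3.11% to 5.49% in rats 25 to 32, and these ranges overlapped. The SM libraries of rats 17 to 24 also had much rRNA, at 79.3% to 82.4% of the mitochondrial counts. It took 64.5% to 78.3% in rats 2 to 16 and 75.1% to 79.6% in rats 25 to 32, which overlapped. The part of this difference in the Mt-nd6 share was not tested. The 3 ranges were chosen after these values were seen and were not tested, and the labels give no batch for them.

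The share of Mt-co2, a core subunit of cytochrome oxidase and no member, was low in the same rats: it spanned 3.29% to 3.97% in rats 17 to 24 of SM, below the 4.11% to 4.77% of rats 2 to 16 and overlapping the 3.86% to 4.82% of rats 25 to 32. The shares of the other small subunits overlapped between these ranges. In SM Mt-nd4l spanned 0.913% to 1.23% in rats 2 to 16, 0.830% to 1.02% in rats 17 to 24 and 0.746% to 1.15% in rats 25 to 32. Mt-nd3 spanned 0.627% to 0.957%, 0.614% to 0.867% and 0.478% to 1.02%. When labels were permuted within these ranges, the training difference of Mt-nd3 in SM kept its call (permutation adjusted p = 0.00162) and that of Mt-nd6 gave 0.847.

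**Figure D5:**
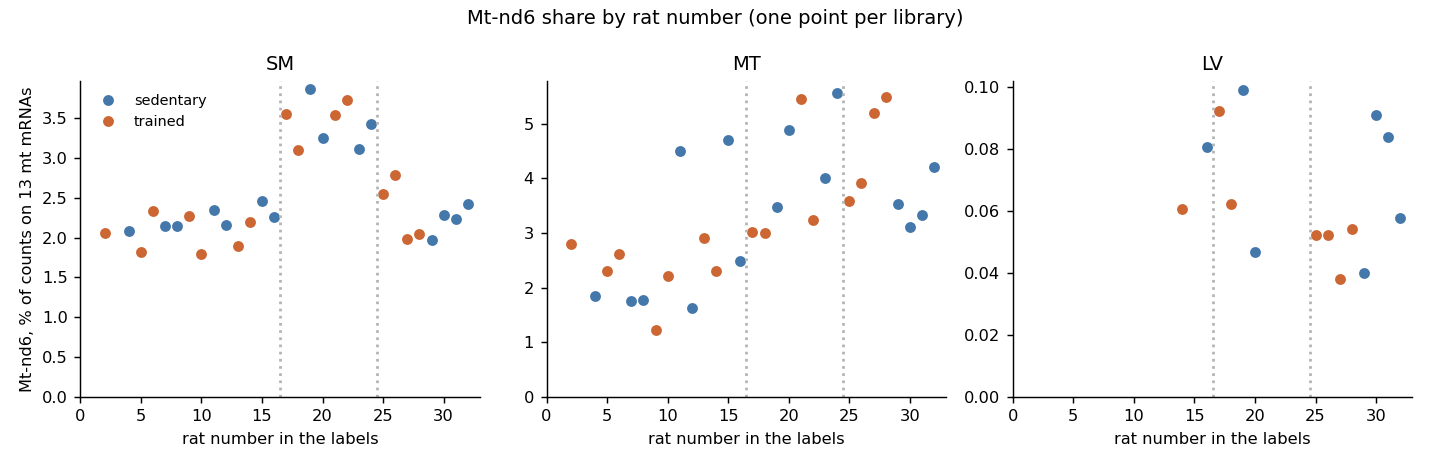
Share of Mt-nd6 (percent of the 13 mRNAs, axes from 0) against the rat number in the labels, 1 point per library, with dotted lines at rats 16 to 17 and 24 to 25. In SM the 8 rats from 17 to 24 lie at 3.11% to 3.87%, above all others, in both arms.

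The nuclear genes of complex I did not follow the mitochondrial ones between heart and muscle. In LV_Sed 40% of all genes tested were called higher and 38.6% lower, and in LV_ExT 39.7% and 39.5%. Of the 7 nuclear core subunits, which carry the flavin and iron-sulphur clusters, 5 were higher and 2 lower in LV_Sed, with a median log2 fold change of 0.40 against -4.91 for the mitochondrial members and 0.04 over all genes. CPM of single nuclear genes, here and below, are on the TMM scale and not of the library total. Ndufv1, the NADH-binding subunit, was at 465 CPM ± 47.1 in LV_Sed and 291 ± 28.4 in SM_Sed (SD, n = 7 each). Its log2 fold change was 0.64 ± 0.08 (SE). Ndufv2, an iron-sulphur subunit beside it, was at 208 ± 15.5 and 404 ± 46.6, a log2 fold change of -0.996 ± 0.0792. Of 28 rows tested for the accessory subunits, 13 were higher and 13 lower (median -0.06), near the shares over all genes, among them Ndufb4 at 1.17 ± 0.07 and Ndufa13 at -1.31 ± 0.06. In ExT the same lists gave 5 higher and 2 lower, and 13 higher and 11 lower.

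Assembly factors and mitochondrial mRNA factors were tested by edgeR in the same way, against the same 40% higher and 38.6% lower over all genes. Of 14 assembly factors 5 were higher and 5 lower in LV_Sed. Ndufaf4 was higher by 1.22 ± 0.07 on the log2 scale, and Tmem70 changed by -1.83 ± 0.09. Of 23 genes for mitochondrial transcription and mRNA processing or stability, 15 were higher and 2 lower, with a median of 0.32. Slirp, partner of the mRNA-stabilising protein Lrpprc, was higher by 1.08 ± 0.11, and Tfam, which packages mitochondrial DNA and starts its transcription, changed by -0.78 ± 0.07. The edgeR adjusted p of the genes named here ran from 1.4e-13 for Ndufa13 to 4.74e-07 for Ndufv1. With library totals alone the counts higher and lower in LV_Sed were 5 and 2 (core), 14 and 9 (accessory), 8 and 4 (assembly) and 20 and 2 (mRNA factors), where 50.3% of all genes were higher and 29.9% lower. In the training comparisons edgeR called 0 genes of these 4 lists in any sample type.

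Between MT and SM the nuclear subunits lay far below the mitochondrial ones. In Sed rats, where 33.1% of all genes tested were called lower in MT and 61.7% higher, 6 of 7 nuclear core subunits were lower, 1 was higher and the median log2 fold change was -5.08, where that of the mitochondrial members was -0.02. Ndufs1, the largest iron-sulphur subunit, was at 10.01 CPM ± 1.92 (SD, TMM scale) in MT and 661 ± 106 in SM of the 15 Sed rats. Its log2 fold change was -5.88 ± 0.11 (edgeR adjusted p = 3e-41). In MT libraries 3 counts equal 0.300 to 5.66 CPM of the library total, so low levels in MT rest on few counts. That scale is not the TMM scale of the Ndufs1 means, so these values cannot be compared directly. Of 29 accessory rows 27 were lower and 2 higher, and of 14 assembly factors 12 were lower and 1 higher. In ExT rats 6 of 6 core subunits tested and 27 of 28 accessory rows were lower, where 35% of all genes were called lower and 59.3% higher. With library totals alone the core and accessory counts were the same in Sed, with medians of -3.54 and -3.16. The 23 mRNA factors had 19 lower and 1 higher in Sed with the main scaling, and 6 lower and 11 higher with library totals alone, so no direction is given for them, and the assembly factors had 4 lower and 2 higher. Over all genes that scaling called 12.3% lower and 77.1% higher.

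Over the 30 SM libraries, the nuclear-encoded genes most like the mean log2 level of the 7 members were Cox6b1 (Pearson r = 0.91), Ndufa12 (0.88) and Atp5mf (0.88), among 8535 genes. Cox6b1 encodes a subunit of cytochrome oxidase, Ndufa12 an accessory subunit of complex I and Atp5mf a subunit of ATP synthase. Over the 14 LV libraries they were Atp5pf (0.87), RT1-S3 (0.86) and Mrpl51 (0.84), among 8804. These are the highest of many correlations over libraries that share their scaling and are given without a test. Among the other mitochondrial mRNAs r was 0.91 to 0.96 in SM except for Mt-atp8 (0.18), and 0.65 to 0.98 in LV.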

How the data were processed

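The deposited values are whole-number counts per gene, not normalized, in 3 tables of 30560 genes for 74 libraries. The submitters' processing notes name cutadapt 4.6, FastQC 0.74, STAR 2.7.11a, HTSeq and build mRatBN7.2. Strand setting, annotation and the handling of reads that match several places are not given in the sources used here, and such reads could shift counts between mitochondrial genes and nuclear copies. Groups came from the titles.

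Levels were tested with edgeR 4.0.16 (R 4.3.3; TMM, filterByExpr, robust quasi-likelihood F test, Benjamini-Hochberg over all genes, called under 0.05). Shares were compared with two-sided permutation tests (100000 resamples, exact with fewer than 10 libraries a group), adjusted over 117 tests (39 for correlations), in Python 3.11.15 (scipy 1.17.1, numpy 2.4.6, pandas 2.3.3). Both were tested on simulated data. Named genes of a list are at most 2 called in each direction, of largest fold change and at least 5 CPM on the TMM scale. The members and lists were chosen with earlier results of these data known. MT, SM and LV libraries of a number come from the same rat, though they deviated together only weakly (median r 0.0188 for MT and SM, 0.0585 for LV and SM). The main tests of MT or LV against SM treated these libraries as independent, also where counts of rats are given beside them. Only the alternatives with the rat as a block and the share tests of the training term used the pairing. Replicates are separate rats, housed in pairs. No 2 libraries of a group agreed within sampling noise. Of the listed genes, rows sharing a symbol (Ndufb2, Ndufs5) were each counted.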

Additional observations from a re-analysis of the deposited data

Results flagged for a closer look

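In the groups of 7 LV libraries, the highest or lowest library was compared with its nearest neighbour for the share and the CPM of each member, 28 sets of values in all. The LV library of the sedentary rat 29 stood apart for Mt-nd4l in both, with a share of 0.0631% of the 13-mRNA counts and a level of 36.6 CPM, where the group medians were 0.0367% and 18.98 CPM. Chance marks about 1 in 20 such sets, and 2 of 28 were marked, both from this library and mRNA. The count behind the value was 2540.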

How the results depend on the processing

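The alternatives were RLE scaling or library totals alone in place of TMM, no filter, DESeq2, each rat range alone, the rat as a block, a centred log2 ratio in place of the share, Spearman in place of Pearson, and leaving out the 2 libraries farthest from the median percent. The rat ranges as a covariate or permutation stratum and the leaving out of the trained rat 2 in SM were added after the data were seen. The fit per coding length was not run, because no lengths were at hand. Of 102 alternative counts of members, 87 stayed within 1.5 times the main count. The 15 that moved are these. Members called between MT and SM in Sed went from 0 to 6 with library totals alone, 1 with DESeq2, 1 in rats 17 to 32 and 3 with the replicate block. In ExT they went from 0 to 2 with RLE scaling, 4 with library totals alone, 3 with DESeq2 and 2 with the replicate block. Members with a changed share went from 1 to 0 in rats 17 to 32 for training in SM, from 0 to 1 there for training in MT and for the training term of LV against SM (Mt-nd2, 0.589 points, exact permutation adjusted p = 0.0422), and from 5 to 3 in rats 2 to 16 for MT over SM in ExT. Members whose share followed the mitochondrial-genome percent in SM went from 2 to 1 in each rat range and without the 2 farthest libraries. Leaving out the trained rat 2 gave 0 members called and 1 with a changed share in SM. The replicate block, paired by rat, changed no other count by over 1.5 times. The cause of these changes was not tested. Depth limits the MT values most, where the lowest count was 111.

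Of 714 alternative values of single members 587 kept direction and call, 27 gained a call, 14 lost one and 86 changed sign. Of the 86, 80 were called on neither side, 4 only in the alternative and 2 on both (Mt-nd1 on the centred log2 ratio in LV). Log2 fold changes that changed sign follow, in the direction named. In rats 17 to 32, for training in SM Mt-nd1 -0.064, Mt-nd2 -0.20, Mt-nd4 -0.18, Mt-nd4l -0.22, Mt-nd5 -0.14, Mt-nd6 -0.0036, for MT over SM in Sed Mt-nd1 -0.19, for MT over SM in ExT Mt-nd4l 0.17, for the training term of LV against SM Mt-nd6 0.071. In rats 2 to 16, for training in SM Mt-nd3 0.18, for MT over SM in Sed Mt-nd2 0.25, Mt-nd3 0.13, for the training term of MT against SM Mt-nd2 -0.085, Mt-nd6 -0.23. With library totals alone, for training in MT Mt-nd1 -0.14, Mt-nd2 -0.14, Mt-nd3 -0.097, Mt-nd4 -0.11, Mt-nd4l -0.11, Mt-nd5 -0.100, Mt-nd6 -0.041, for MT over SM in Sed Mt-nd2 0.83, Mt-nd3 0.46, Mt-nd4 0.44, Mt-nd4l 0.20, for LV over SM in Sed Mt-nd3 0.11, for the training term of MT against SM Mt-nd1 -0.32, Mt-nd2 -0.30, Mt-nd3 -0.043, Mt-nd4 -0.24, Mt-nd4l -0.23, Mt-nd5 -0.25, Mt-nd6 -0.17. With DESeq2, for training in MT Mt-nd1 -0.27, Mt-nd3 -0.22, Mt-nd4 -0.24, for MT over SM in Sed Mt-nd2 0.37, Mt-nd3 0.26, Mt-nd4 0.046, for MT over SM in ExT Mt-nd4 -0.28. With the replicate block, for MT over SM in Sed Mt-nd1 -0.53, Mt-nd5 -0.27, Mt-nd6 -0.63, for MT over SM in ExT Mt-nd1 -0.75, Mt-nd2 -0.87, Mt-nd3 -1.21, Mt-nd4 -1.26, Mt-nd5 -0.39, Mt-nd6 -0.90, for the training term of MT against SM Mt-nd1 -0.26, Mt-nd2 -0.23, Mt-nd3 -0.13, Mt-nd4 -0.22, Mt-nd4l -0.15, Mt-nd5 -0.17, Mt-nd6 -0.32. With RLE scaling, for MT over SM in Sed Mt-nd2 0.37, Mt-nd3 0.26, Mt-nd4 0.046, for MT over SM in ExT Mt-nd4l 0.32. Differences in share (points, or log2 on the centred ratio) that changed sign follow. On the centred log2 ratio, for training in SM Mt-nd1 0.026, Mt-nd6 0.0071, for LV over SM in Sed Mt-nd1 0.49, for LV over SM in ExT Mt-nd1 0.44, for the training term of MT against SM Mt-nd2 -0.028, Mt-nd4 -0.015. In rats 17 to 32, for training in SM Mt-nd1 0.0567, Mt-nd6 0.093, for training in MT Mt-nd6 0.0987, for MT over SM in ExT Mt-nd3 0.0973, for the training term of MT against SM Mt-nd2 -0.0565, Mt-nd5 -0.807, Mt-nd6 0.00571. In rats 2 to 16, for training in SM Mt-nd2 0.0828, for training in MT Mt-nd1 0.0789, Mt-nd2 0.15, Mt-nd4l 0.00212, Mt-nd5 0.948, for the training term of MT against SM Mt-nd1 0.246. Correlations that changed sign follow. In rats 2 to 16, for SM Mt-nd2 0.12, Mt-nd6 -0.15. In rats 17 to 32, for SM Mt-nd3 0.055, Mt-nd4 0.16, Mt-nd4l 0.36. Without the 2 farthest libraries, for SM Mt-nd4l 0.0901. As Spearman values, for SM Mt-nd6 -0.024.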
